A study of Mus musculus with 12 samples.

Results

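The 10 genes described here are the muscle-specific ubiquitin ligases Trim63 (MuRF1), Fbxo32 (atrogin-1), Trim54 and Trim55, the F-box genes Fbxo30 and Fbxo21, the FoxO transcription factors Foxo1, Foxo3 and Foxo4, and the mitophagy receptor Bnip3. They were chosen by name as the classical muscle atrophy programme, out of 36008 genes in the deposited expression table, with earlier results of these data known. All 10 were among the 10481 genes tested, those above 5 TPM in at least 1 library. The RNA came from left hind limb gastrocnemius and quadriceps of 6 female mice, 30 weeks old at the start, of which 3 spent 9 weeks on the International Space Station (flight) and 3 spent the same time on the ground in identical housing hardware. All 6 mice received control injections of phosphate-buffered saline under the skin, since they were part of larger groups in a study of bone, so no group is free of handling and injection. The question of the study was how gene expression and splicing in hind limb muscle differ in microgravity. The strain is C57BL/6 by the sample labels and BALB/c by the published methods. The limbs came from carcasses that were frozen and later thawed before dissection. The 12 libraries formed 4 groups of 3, and every mouse gave both muscles. Expression is given in TPM, a share of the transcripts in a library that is scaled for gene length and for library total, so levels can be compared between genes.

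Muscle mass is set by the balance of protein synthesis and breakdown. In the textbook account, insulin and IGF-1 signalling through Akt holds FoxO factors in the cytoplasm, and when that signal drops FoxO factors enter the nucleus and switch on ubiquitin ligases, which mark sarcomere and regulatory proteins for the proteasome, together with genes of autophagy. Trim63 and Fbxo32 are the best-known markers of this programme, and FoxO activity is set largely by phosphorylation, which RNA levels do not show.

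Of the 7 members with a promoter entry, 2 are shown, because a searched motif of a factor known to act on them was found there. They are RefSeq sequences of GRCm38.p6, each 300 bases long and running from 250 bases before to 50 bases after the annotated start, written 5′ to 3′ on the strand of the gene. The Trim63 promoter lies at chr4:134314870-134315169 on the plus strand, and the capitals mark the reverse complement of GTAAACA, the core letters recognised by FoxO factors. The Bnip3 promoter lies at chr7:138909457-138909756 on the minus strand, and the capitals mark overlapping matches on both strands to ACGTG, the core letters of the hypoxia response element, which together spell CACGTG.
Trim63 promoter: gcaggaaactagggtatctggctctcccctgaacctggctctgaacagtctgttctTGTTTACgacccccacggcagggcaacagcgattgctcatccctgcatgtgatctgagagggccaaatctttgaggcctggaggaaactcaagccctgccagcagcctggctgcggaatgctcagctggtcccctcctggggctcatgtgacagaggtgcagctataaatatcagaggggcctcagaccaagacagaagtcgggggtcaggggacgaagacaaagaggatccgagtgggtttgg
Bnip3 promoter: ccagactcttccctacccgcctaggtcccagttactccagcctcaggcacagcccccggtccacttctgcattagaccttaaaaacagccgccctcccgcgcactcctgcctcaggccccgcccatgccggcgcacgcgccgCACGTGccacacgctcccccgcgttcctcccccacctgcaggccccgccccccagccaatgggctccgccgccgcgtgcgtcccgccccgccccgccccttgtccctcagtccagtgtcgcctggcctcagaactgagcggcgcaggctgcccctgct

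The GTAAACA match in Trim63 sits 194 to 188 bases before the start. Among the 7, 1 held GTAAACA on either strand, and of all 32851 promoters of this length 3.65% did. The CACGTG of Bnip3 sits 108 to 103 bases before its start. ACGTG was found in 1 of the 7 member promoters and in 19.6% of all promoters, and the longer CACGTG in 7.15% of all promoters. The motifs were chosen after the promoters had been read, so these counts are a description and not a test. A match is a stretch of letters and not a shown binding site. Fbxo32, Trim55 and Foxo4 had no entry in the promoter table.

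All 10 are protein-coding genes, and their positions are those of GENCODE vM21 on GRCm38. The MuRF genes lie on 3 chromosomes, with Trim63 at chr4:134315120-134329629, Trim54 at chr5:31116712-31137630 and Trim55 at chr3:19644474-19692421, all on the plus strand. The F-box genes are Fbxo32 at chr15:58175879-58214932 on the minus strand, Fbxo30 at chr10:11281330-11298052 and Fbxo21 at chr5:117976730-118010201, both on the plus strand. Foxo1 lies at chr3:52268336-52353221 and Foxo4 at chrX:101254528-101260873 on the plus strand, and Foxo3 at chr10:42181841-42276755 on the minus strand. Bnip3 lies at chr7:138890836-138909519 on the minus strand.

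The 10 genes spanned a wide range of levels. In the ground gastrocnemius, Trim54 (MuRF3, a ligase bound to microtubules and the sarcomere) had the highest level at 182 ± 10.3 TPM (SD, n = 3), followed by Trim63 at 126 ± 6.23 TPM. Bnip3 was next at 87.9 ± 4.60 TPM, and Foxo4 at 66.7 ± 3.02 TPM was the most abundant of the FoxO factors. These 4 did not overlap between neighbours in the order. Fbxo32 at 36.9 ± 5.53 TPM and Trim55 (MuRF2) at 31.5 ± 0.913 TPM overlapped each other. Foxo3 followed at 20.2 ± 3.34 TPM. Fbxo21, Fbxo30 and Foxo1 were the lowest, at 8.75 ± 1.18, 8.72 ± 0.450 and 7.53 ± 2.52 TPM, and their ranges overlapped. Trim54, Trim63 and Bnip3 stood above Fbxo32 in every library. In the flight gastrocnemius the mean of Foxo4, 80.6 ± 8.32 TPM, stood above that of Bnip3, 71.6 ± 3.28 TPM, the reverse of the order on the ground, with Foxo4 at 71.9 TPM in M11 within the range of Bnip3.

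**Figure D1:**
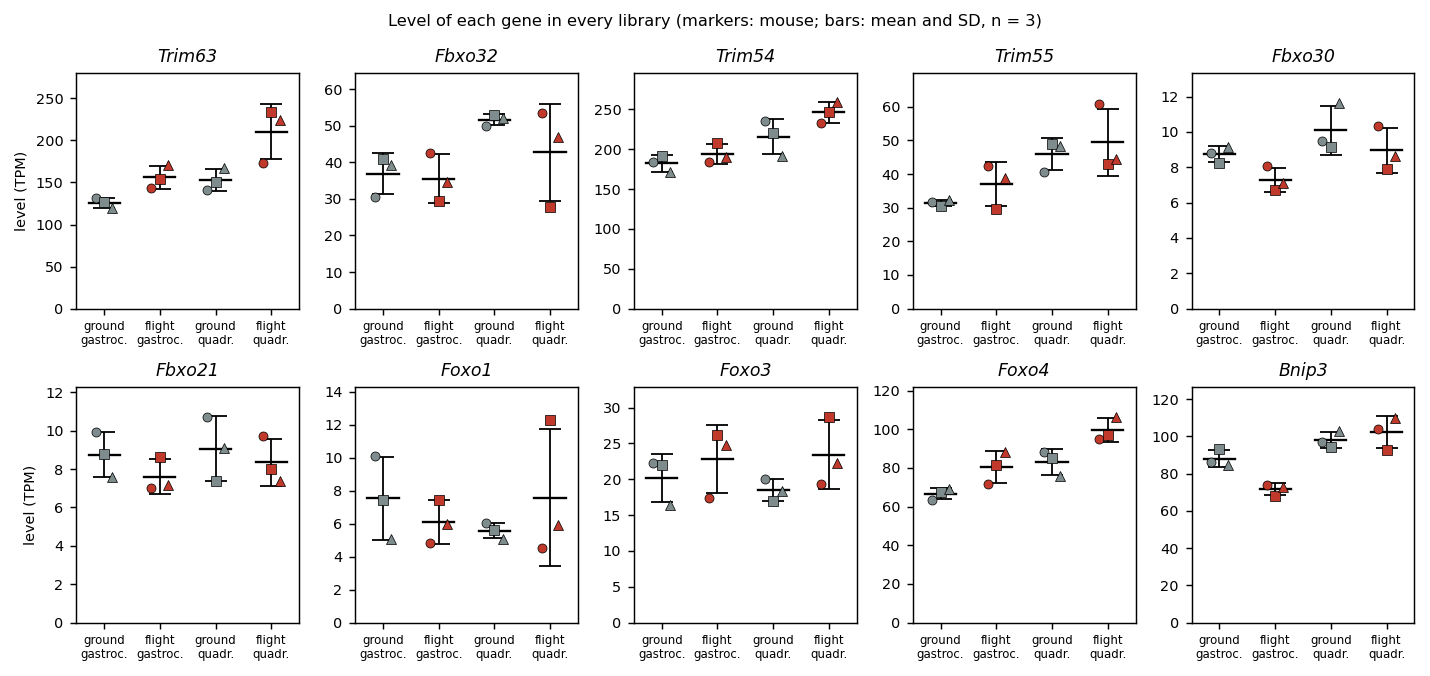
Level of each of the 10 genes in TPM (vertical axis, from 0) in the 12 libraries, in 4 groups along the horizontal axis. Each marker is 1 mouse, grey on the ground and red in flight. A mouse has the same shape in both muscles, and bars are the mean and SD of 3 mice. Trim63 and Foxo4 lie higher in flight than on the ground in both muscles without overlap. Bnip3 and Fbxo30 lie lower in the flight gastrocnemius, also without overlap. The share of all tested genes without overlap was 21% for the gastrocnemius and 17.4% for the quadriceps. After adjustment, 0 of the 10 were called in flight in either muscle.

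The first question was whether flight moved these genes. In both muscles Trim63 and Foxo4 were higher in every flight mouse than in every ground mouse, and in the gastrocnemius Bnip3 and Fbxo30 were lower in every flight mouse. None of these differences passed the test across all genes. Genes were called differentially expressed at a limma p under 0.05 after Benjamini-Hochberg adjustment over 10481 genes and a change above 1.5-fold. By this rule 0 of the 10 members were called in the gastrocnemius, where 0.229% of all genes were called. In the quadriceps 0 of 10 were called, against 0.0286% of all genes. At an unadjusted p under 0.05, 3 members were found in the gastrocnemius and 2 in the quadriceps, against 15.1% and 10.8% of all genes. The groups did not overlap for 4 of 10 members in the gastrocnemius, against 21% of all genes, and for 2 of 10 in the quadriceps, against 17.4%. In the gastrocnemius 5 members had a higher and 5 a lower fitted mean in flight, with a median log2 fold change of 0.015 beside 0.0188 over all genes. In the quadriceps 7 were higher and 3 lower, with a median of 0.142 beside 0.0117.

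Trim63 encodes MuRF1, a RING-finger ligase that targets thick-filament proteins such as myosin heavy chain. In the gastrocnemius its level was 132, 127 and 119 TPM in ground mice M02, M03 and M08 and 144, 155 and 170 TPM in flight mice M11, M12 and M20. Quadriceps levels were 141, 151 and 167 TPM on the ground and 173, 234 and 225 TPM in flight. The flight values lay above the ground values in both muscles, by a narrow gap in the quadriceps, where M11 was close to ground mouse M08. The log2 fold change was 0.31 ± 0.087 (SE) in the gastrocnemius, or 1.24-fold (limma adjusted p = 0.21), with a 95% interval from 0.10 to 0.51. In the quadriceps it was 0.45 ± 0.129, or 1.37-fold (limma adjusted p = 0.347), with an interval from 0.14 to 0.76. The upper bound in the gastrocnemius lies under a 1.5-fold change, and that in the quadriceps does not.

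Because both muscles came from the same mice, they were also averaged within each mouse, giving 3 flight against 3 ground values. On this scale 0 of 10 members were called, against 0.124% of all genes. At an unadjusted p under 0.05 there were 2 members, Trim63 and Foxo4, against 18% of all genes. The groups did not overlap for 3 members (Trim63, Foxo4 and Bnip3), against 24.4% of all genes. The value for Trim63 was a log2 fold change of 0.38 ± 0.0872, or 1.3-fold (limma adjusted p = 0.0902). Its adjusted p ran from 0.0143 to 0.347 over 11 alternative settings, the lowest being without flight mouse M11, where the log2 fold change was 0.47. That value was still under the 1.5-fold limit.

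Fbxo32 encodes atrogin-1, the F-box subunit of a ligase whose known targets include factors of translation and myogenesis, and it is usually described as moving with Trim63. Its gastrocnemius levels were 30.6, 41.0 and 39.2 TPM in the ground mice and 42.6, 29.4 and 34.7 TPM in M11, M12 and M20. The quadriceps held 50, 52.9 and 52.0 TPM on the ground and 53.5, 27.9 and 46.9 TPM in flight. The groups overlapped in both muscles, and the lowest flight value came from M12 in each. The log2 fold change was -0.06 ± 0.160 in the gastrocnemius (adjusted p = 0.89) and -0.32 ± 0.222 in the quadriceps (adjusted p = 0.636). The intervals ran from -0.43 to 0.31 and from -0.84 to 0.21, so a 1.5-fold decrease in the quadriceps lies inside the interval. Leaving out 1 mouse at a time gave -0.19 (without M11) to 0.07 (without M12) in the gastrocnemius and -0.50 (without M11) to -0.04 (without M12) in the quadriceps. Over the 12 libraries the Pearson correlation of Trim63 and Fbxo32 on the log2 scale was -0.0812, and -0.61 after subtracting each group's mean. Both are descriptions across libraries that share mice.

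The other MuRF genes, relatives of Trim63, also encode sarcomere-associated ligases. Trim54 held 184, 191 and 171 TPM in the ground gastrocnemius and 183, 208 and 190 TPM in flight. Its quadriceps values were 236, 220 and 192 TPM on the ground and 232, 247 and 259 TPM in flight. The groups overlapped in both muscles, and the log2 fold changes were 0.09 ± 0.0820 (adjusted p = 0.642) and 0.19 ± 0.0915 (adjusted p = 0.501). Trim55 held 31.6, 30.5 and 32.3 TPM in the ground gastrocnemius and 42.4, 29.7 and 38.7 TPM in flight. In the quadriceps it was at 40.5, 49.0 and 48.2 TPM on the ground and 60.9, 42.9 and 44.4 TPM in flight. Flight mouse M11 was the highest and M12 the lowest of the 3 flight mice for Trim55 in both muscles. Its log2 fold changes were 0.21 ± 0.131 (adjusted p = 0.483) and 0.09 ± 0.151 (adjusted p = 0.854).

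The F-box genes Fbxo30, known as MUSA1 and linked to muscle loss after denervation, and Fbxo21, known as SMART, were both expressed at low levels. Fbxo30 had 8.79, 8.25 and 9.14 TPM in the ground gastrocnemius against 8.05, 6.70 and 7.08 TPM in flight, with no overlap and a log2 fold change of -0.23 ± 0.107 (limma adjusted p = 0.355). In the quadriceps its groups overlapped, between 9.13 and 11.6 TPM on the ground and between 7.87 and 10.4 TPM in flight (log2 fold change -0.16 ± 0.148, adjusted p = 0.732). Fbxo21 overlapped in both muscles, from 7.57 to 9.92 TPM on the ground and 6.99 to 8.65 TPM in flight in the gastrocnemius, and from 7.38 to 10.7 and 7.37 to 9.73 TPM in the quadriceps. Its log2 fold changes were -0.18 ± 0.132 and -0.10 ± 0.169 (adjusted p = 0.549 and 0.857).

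Among the FoxO factors, Foxo4 was the most abundant and had the tightest replicates. It held 63.3, 67.8 and 69.0 TPM in the ground gastrocnemius against 71.9, 81.5 and 88.5 TPM in flight. Its quadriceps levels were 88.4, 85.0 and 75.8 TPM on the ground against 94.9, 97.2 and 107 TPM in flight. All 3 flight mice were above all 3 ground mice in each muscle. The log2 fold change was 0.26 in both, with an SE of 0.0957 in the gastrocnemius (limma adjusted p = 0.272) and 0.0868 in the quadriceps (limma adjusted p = 0.39). Averaged over both muscles it was 0.26 ± 0.0740 (limma adjusted p = 0.139), with an adjusted p from 0.0515 to 0.423 over the alternatives.

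Foxo1 and Foxo3, the factors most often tied to atrophy, varied more between mice than Foxo4. Foxo1 held 10.1, 7.40 and 5.07 TPM in the ground gastrocnemius and 4.82, 7.46 and 5.97 TPM in flight. Quadriceps values were 6.05, 5.61 and 5.09 TPM on the ground and 4.53, 12.3 and 5.92 TPM in flight. The log2 fold change in the quadriceps was 0.28 ± 0.312 (adjusted p = 0.772), and -0.09 without M12 and 0.55 without M11. In the gastrocnemius it was -0.24 ± 0.235 (adjusted p = 0.663), and -0.03 without M02 and -0.46 without M08. The interval in the quadriceps ran from -0.46 to 1.02, which holds changes beyond 1.5-fold. Foxo3 held 22.3, 21.9 and 16.4 TPM in the ground gastrocnemius and 17.3, 26.1 and 24.9 TPM in flight. Its quadriceps values were 20.03, 16.9 and 18.4 TPM on the ground and 19.3, 28.7 and 22.3 TPM in flight. The groups overlapped in both muscles, with log2 fold changes of 0.16 ± 0.180 (adjusted p = 0.713) and 0.31 ± 0.154 (adjusted p = 0.509), and leaving out 1 mouse at a time gave 0.02 (without M08) to 0.33 (without M11) and 0.16 (without M12) to 0.44 (without M11).

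**Figure D2:**
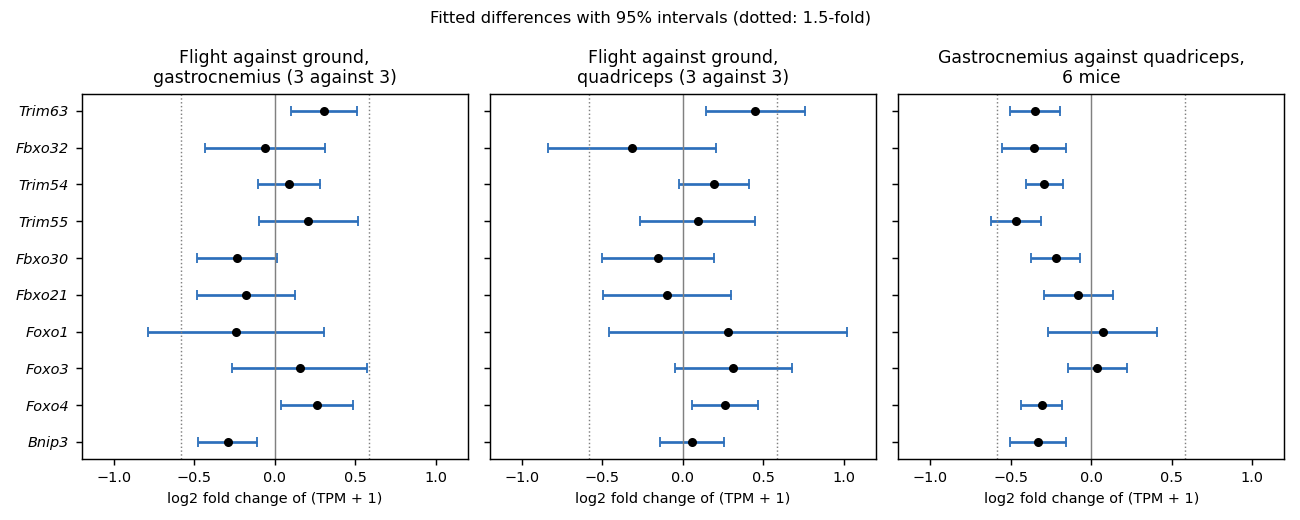
Fitted log2 fold change of each gene (points) with its 95% interval (bars) for flight against ground in each muscle and for gastrocnemius against quadriceps in the 6 mice, with dotted lines at 1.5-fold. The flight intervals of Trim63 and Foxo4 lie above 0 in both muscles and that of Bnip3 below 0 in the gastrocnemius, none of them past the threshold after adjustment. In the muscle comparison 7 of 10 intervals lie below 0. The intervals are not adjusted, and 15.1%, 10.8% and 41.6% of all genes had an unadjusted p under 0.05 in the 3 panels. By the rule with the 1.5-fold limit, 0 of 10 were called in each panel.

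Bnip3 encodes a receptor of the outer mitochondrial membrane that recruits autophagosomes, and it is a known target both of FoxO3 and of hypoxia-inducible factors. The gastrocnemius held 86.1, 93.2 and 84.5 TPM on the ground and 74.1, 67.9 and 73.0 TPM in flight without overlap. In the quadriceps the ground mice held 97.3, 94.6 and 103 TPM and the flight mice 104, 92.9 and 110 TPM, with overlap. The log2 fold change was -0.29 ± 0.0788 in the gastrocnemius, or 0.817-fold (limma adjusted p = 0.19), and 0.06 ± 0.0838 in the quadriceps (adjusted p = 0.844).

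The difference between the flight effects of the muscles was tested directly, with mouse as a block. For Bnip3 the log2 flight effect in the gastrocnemius minus that in the quadriceps was -0.35 ± 0.111 (limma adjusted p = 0.95). Within a mouse, the gastrocnemius minus quadriceps difference was -0.17, -0.02 and -0.28 in the ground mice and -0.48, -0.45 and -0.58 in the flight mice. The 3 flight mice thus lay below the 3 ground mice, and the share of all genes separated in this way was not computed. The difference of flight effects did not survive adjustment: 0 of 10 members and 0% of all genes passed. Bnip3 was the 1 member with an unadjusted p under 0.05, against 5.09% of all genes. Foxo1 had the largest difference of effects, -0.52 ± 0.259 (limma adjusted p = 0.957), which was -0.29 without M12. For Trim63 and Foxo4 the differences of effects were -0.14 ± 0.137 and 0.01 ± 0.121, with intervals from -0.46 to 0.17 and from -0.27 to 0.28.

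The second comparison was between the muscles of the same mouse. Trim63, Fbxo32, Trim54, Trim55, Fbxo30, Foxo4 and Bnip3 were lower in the gastrocnemius than in the quadriceps, whereas Fbxo21, Foxo1 and Foxo3 did not pass the test. By the rule that also asks for a 1.5-fold change, 0 of 10 were called, against 3.36% of all genes. At an adjusted p under 0.05 with no limit on the fold, a rule set after the values were seen, 7 of 10 members were lower in the gastrocnemius, against 25.7% of all genes. The same 7 had an unadjusted p under 0.05, against 41.6% of all genes in either direction. For 6 members the gastrocnemius was lower in all 6 mice, against 26.1% of all genes. The whole table leaned the same way, with a median log2 difference of -0.109 over all genes and -0.299 over the members. After rescaling the libraries by median ratios these medians were -0.0238 and -0.208, and 6 of 10 members remained past the adjusted threshold and the lost gene was Fbxo30. With mouse left out of the fit as a block, 4 of 10 passed. The 25.7% of all genes belongs to the main fit, and the share was not computed after rescaling or without the block.

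The largest of these differences was that of Trim55, at -0.47 ± 0.0689 (0.724-fold, adjusted p = 0.00167), and after rescaling it was -0.38 (adjusted p = 0.0101). It was lower by 0.35, 0.67 and 0.56 on the log2 scale in M02, M03 and M08 and by 0.51, 0.52 and 0.20 in M11, M12 and M20. An exact sign-flip permutation test over the 6 mice gave Trim55 a two-sided p of 0.0312, not adjusted for the number of genes. It is the smallest that 6 mice allow, and Trim63, Trim54, Fbxo30, Foxo4 and Bnip3 had the same. Any gene with the same sign in all 6 mice has this p, so it adds nothing to that count. Of all genes, 26.1% were lower in the gastrocnemius in all 6 mice. Trim63 differed by -0.35 ± 0.0686 (0.786-fold, adjusted p = 0.00562) and Bnip3 by -0.33 ± 0.0772 (adjusted p = 0.0119). Foxo4 and Trim54 differed by -0.31 ± 0.0566 and -0.29 ± 0.0514 (adjusted p = 0.00411 and 0.00337). For Fbxo32 the value was -0.35 ± 0.0876 (adjusted p = 0.0151), and M12 was the only mouse in which the gastrocnemius was not the lower muscle. The exact p of Fbxo32 was 0.0625 and its value without M12 was -0.44. Fbxo30 had the smallest passing difference, -0.22 ± 0.0677 (adjusted p = 0.0355), and its adjusted p rose above 0.05 whichever mouse was left out, to between 0.0527 and 0.0969.

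**Figure D3:**
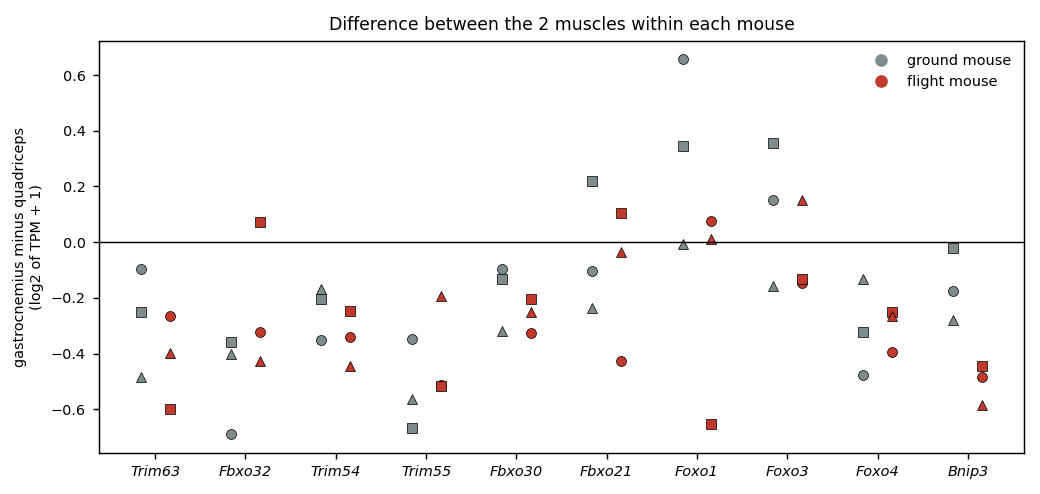
Difference between gastrocnemius and quadriceps (vertical axis, log2 of TPM + 1) of each gene (horizontal axis) within each of the 6 mice, ground mice in grey and flight mice in red. All 6 mice lie below 0 for Trim63, Trim54, Trim55, Fbxo30, Foxo4 and Bnip3, and the Fbxo32 value of M12 is the 1 point above 0 for that gene. For Bnip3 the 3 flight mice lie below the 3 ground mice, a separation whose share over all genes was not computed.

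Other cell types and fibre types moved with the same comparisons. In bulk tissue, fewer cells of a type and less RNA per cell cannot be told apart. Between the muscles, the 4 tested Schwann cell markers of 5 listed were all called higher in the gastrocnemius (summed level 138 to 303 TPM in the gastrocnemius and 53.7 to 86.7 TPM in the quadriceps). The 10 fast fibre markers summed to between 78590 and 88510 TPM in the gastrocnemius and between 110200 and 125600 TPM in the quadriceps. Of these, 8 of 10 had a lower fitted mean in the gastrocnemius, and Myh1 and Myh2 a higher one (log2 difference 0.30 and 0.25). Of all genes, 31.4% had a higher fitted mean there. In the flight gastrocnemius, 7 of 7 slow fibre markers had a lower fitted mean and Myl2, Myl3 and Atp2a2 were called lower. Their sums were 1716 to 2094 TPM on the ground and 1050 to 1268 TPM in flight. For the quadriceps, 5 of 7 slow fibre markers had a lower fitted mean in flight and 0 were called. The sums there were 885 to 2193 TPM on the ground and 1207 to 1665 TPM in flight. In the quadriceps, the 6 tested adipocyte markers of 7 listed had lower fitted means in flight (324 to 601 TPM on the ground and 206 to 286 TPM in flight). Of these 0 were called and 6 had an unadjusted p under 0.05, against 10.8% of all genes. In flight 0 markers of fast fibres, endothelium, macrophages, fibroblasts and tendon, blood or Schwann cells were called in either muscle, and between the muscles 1 adipocyte, 1 macrophage and 2 fast fibre markers were called lower in the gastrocnemius. The part of these shifts in the members' values was not tested. Library sums ran from 923295 to 966638 TPM, the 10 most abundant genes took 32.6% to 35.6% of a gastrocnemius library and 26.5% to 28.9% of a quadriceps library, and ground quadriceps M08 listed the fewest genes above 0 (18172 against 20291 to 21265). The expression table gives no read counts, so no counting interval was computed for a TPM value.

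How the members varied together was described over the 12 libraries, which come in pairs from 6 mice. Fbxo32 ran opposite to Foxo1, with a Pearson r of -0.784 on the log2 scale, and opposite to Foxo3, with r = -0.735. After subtracting each group's mean the values were -0.928 and -0.803. The -0.928 is the most extreme within-group value of all member pairs, and the share of all genes with such an r was not computed. Foxo1 and Foxo3 ran together (r = 0.762, and 0.864 within groups). The pattern included M12, which had the highest Foxo1 and Foxo3 of the flight mice and the lowest Fbxo32 in both muscles. It also included ground mouse M02, whose gastrocnemius had the highest Foxo1 and the lowest Fbxo32 of its group. No r was computed without these mice. Trim54 and Foxo4 ran together (r = 0.883), as did Trim63 and Foxo4 (r = 0.842), but within groups these were 0.582 and 0.172. Across the 6 mice of both conditions, with no group mean removed, r between the muscles was 0.816 for Trim63, 0.724 for Fbxo32 and -0.223 for Bnip3. For Trim63 this r takes in its higher level in flight in both muscles. Its order in ground mice M02, M03 and M08 was opposite, at 132, 127 and 119 TPM in the gastrocnemius and 141, 151 and 167 TPM in the quadriceps. Among the flight mice M11 was the lowest in both muscles.

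**Figure D4:**
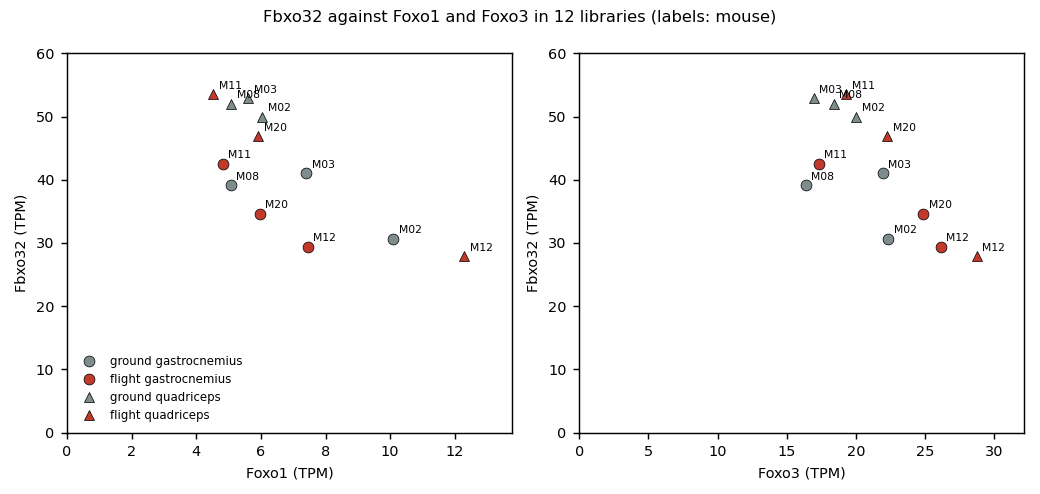
Fbxo32 level (vertical axis, TPM) against Foxo1 and Foxo3 level (horizontal axes, TPM) in the 12 libraries, with colour for condition, shape for muscle and the mouse beside each point. Fbxo32 is lowest, at 27.9 TPM, in the M12 quadriceps, which has the highest Foxo1 (12.3 TPM) and Foxo3 (28.7 TPM).

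The tested genes whose pattern over the 12 libraries was most like a member were also listed. For Trim63 they were Olfr607 (r = 0.946), Olfr635 (0.939), Tpr (0.932), Peg3 (0.932) and Nipbl (0.928). For Fbxo32 they were Sypl (r = 0.962), Gpr155 (0.957), Lias (0.954), Atmin (0.949) and Sod2 (0.946), the last being the mitochondrial superoxide dismutase and a member of the FoxO-linked list. For Bnip3 they were Lgals3bp (r = 0.959), Angptl1 (0.958), Ppil3 (0.949), Smpx (0.940) and Elp3 (0.937). No member was among the 5 most like Trim63, Fbxo32 or Bnip3.

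The surrounding pathway was described with lists of genes. Of 23 other muscle ubiquitin ligase genes tested, 0 were called in either muscle in flight. At an unadjusted p under 0.05 there was 1 in each, against 15.1% and 10.8% of all genes in the gastrocnemius and the quadriceps. A higher fitted mean in flight was found for 13 and 14, against 53.6% and 52% of all genes. The lowest p belonged to Asb2, a Cullin ligase subunit that targets filamins and has been linked to muscle mass: 211 ± 9.69 TPM on the ground and 319 ± 43.1 TPM in flight in the quadriceps (log2 fold change 0.59 ± 0.103, limma adjusted p = 0.244). Klhl41, a sarcomere adaptor of Cul3, had a gastrocnemius value of -0.28 ± 0.105 (adjusted p = 0.284), and Skp1a, a core subunit of F-box ligases, a quadriceps value of -0.21 ± 0.0943 (adjusted p = 0.481). Neither passed. Between the muscles 9 of the 23 had an unadjusted p under 0.05, all lower in the gastrocnemius, a share near the 41.6% of all genes in either direction, and 31.4% of all genes had a higher fitted mean there.

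Autophagy and lysosome genes, which FoxO3 is known to switch on, had more members with lower than with higher fitted means in the flight gastrocnemius and equal numbers, 14 and 14, in the quadriceps. Of 28 tested in the gastrocnemius, 19 had a lower and 9 a higher fitted mean, with a median log2 fold change of -0.0738, and 0 were called. At an unadjusted p under 0.05, 6 were lower and 1 higher there, and 5 lower and 0 higher in the quadriceps, against 15.1% and 10.8% of all genes in either direction. Of all genes, 53.6% and 52% had a higher fitted mean in flight. Gabarapl1, which encodes an autophagosome protein, had 31.1 ± 3.25 TPM in the ground and 22.4 ± 1.43 TPM in the flight gastrocnemius (log2 fold change -0.45 ± 0.104, adjusted p = 0.149). Map1lc3a, another autophagosome protein gene, had 85.1 ± 8.79 and 62.1 ± 5.94 TPM in the quadriceps (log2 fold change -0.45 ± 0.106, adjusted p = 0.299). The lysosomal protease gene Ctsd had a gastrocnemius value of -0.33 ± 0.0826 (adjusted p = 0.166). None of the 3 passed the test.

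Mitophagy genes beside Bnip3 were 8 in number, and 0 were called in flight. At an unadjusted p under 0.05 there were 0 in the gastrocnemius and 3 in the quadriceps, against 15.1% and 10.8% of all genes. Optn, which encodes an autophagy receptor, and Bnip3l, the closest relative of Bnip3, had quadriceps log2 fold changes of 0.39 and 0.22 (adjusted p = 0.378 and 0.427). Of 18 genes of the signalling that controls FoxO factors, 0 were called in flight. At an unadjusted p under 0.05 there were 2 in the gastrocnemius and 1 in the quadriceps, beside the same shares of all genes. Sgk1, which encodes a kinase that phosphorylates FoxO factors, had a log2 fold change of 0.25 ± 0.121 in the quadriceps (adjusted p = 0.505). Of 21 FoxO-linked target genes tested, 0 were called in flight. At an unadjusted p under 0.05 there were 0 in the gastrocnemius and 3 in the quadriceps, beside the same 15.1% and 10.8% of all genes. Fitted means were higher for 14 and lower for 7 in the gastrocnemius, and higher for 13 and lower for 8 in the quadriceps. Of all genes, 53.6% and 52% had a higher fitted mean in flight in these muscles. Gadd45a, Mstn and Cat had quadriceps values of 0.32, 0.38 and -0.29 (adjusted p = 0.397, 0.4 and 0.452). Mstn, which encodes myostatin, the secreted inhibitor of muscle growth, was called lower in the gastrocnemius than in the quadriceps (log2 difference -0.82 ± 0.0896, adjusted p = 0.000572). Its means were 23.6 ± 3.01 and 25.5 ± 1.65 TPM in the gastrocnemius and 38.4 ± 3.75 and 50.4 ± 7.96 TPM in the quadriceps, ground and flight.

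Splicing was the other readout. Tables of exons that can be skipped (SE) and of exon pairs used in alternation (MXE) were given for each muscle, and the members had 1 event in them, a skipped exon of Trim54. It is exon 4 of 9 at chr5:31134050-31134145 on the plus strand of GRCm38, 96 bases long and wholly coding, and both Trim54 transcripts of GENCODE vM21 include it. It starts at a codon boundary, after 513 coding bases, so its 32 codons can be left out without a shift of the reading frame. Its sequence is shown because it is the only spliced segment measured for a member, and its first letter opens a codon.
Trim54 exon 4: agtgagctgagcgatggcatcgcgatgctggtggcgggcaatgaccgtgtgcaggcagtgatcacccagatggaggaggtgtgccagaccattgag

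The inclusion level, or percent spliced in (PSI), was computed from junction reads divided by the length of each form. In the gastrocnemius PSI was 91.5%, 94.5% and 91.0% in the 3 ground samples and 94.1%, 97.3% and 89.9% in the 3 flight samples, which the tables list without mouse names. In the quadriceps it was 91.5%, 87.1% and 80.5% on the ground and 94.2%, 88.0% and 91.5% in flight. The groups overlapped in both muscles, and each value rested on 148 to 269 junction reads, of which 3 to 17 skipped the exon. Exact 95% binomial intervals, which cover counting error only, ran from 71.0% to 88.1% for the lowest sample and from 92.5% to 99.4% for the highest.

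The group means were 92.4% ± 1.92 and 93.8% ± 3.72 in the gastrocnemius, ground and flight, and 86.4% ± 5.57 and 91.3% ± 3.10 in the quadriceps (SD, n = 3). The change was 1.42 points in the gastrocnemius (limma adjusted p = 0.839, two-sided exact permutation p = 0.7) and 4.87 points in the quadriceps (adjusted p = 0.771, exact permutation p = 0.3). The smallest p this permutation test allows is 0.1. Of the tested events, 0.378% of 2118 in the gastrocnemius and 0% of 2062 in the quadriceps passed, with a limit of 0.05 on adjusted p and of 5 points on the change in PSI, where 201 and 160 had an unadjusted p under 0.05. Samples of the 2 groups did not overlap in 16.2% of the 2118 gastrocnemius events and in 12.6% of the 2035 quadriceps events with a PSI in every sample.

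**Figure D5:**
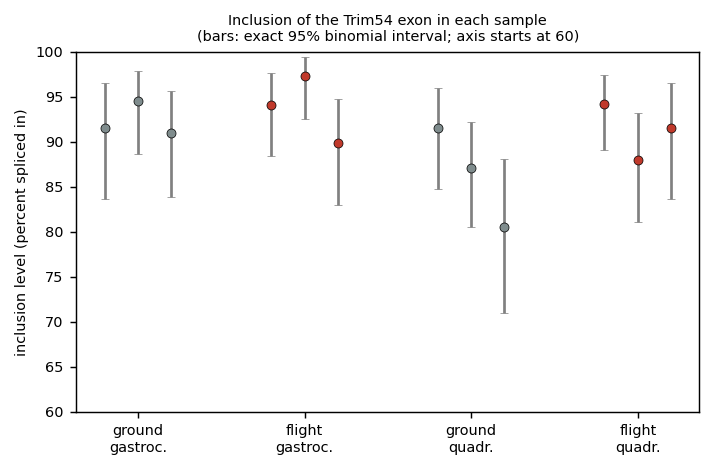
Inclusion of Trim54 exon 4 in each of the 12 samples (vertical axis, percent spliced in, starting at 60), in 4 groups of 3, grey on the ground and red in flight, with points in the order of the tables. Bars are exact 95% binomial intervals; the flight and ground samples overlap in both muscles, with the lowest value, 80.5%, in a ground quadriceps sample.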

How the data were processed

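Poly(A) RNA of 12 samples was sequenced as stranded single-end reads. The authors estimated TPM with kallisto 0.46.0 (per the labels) and summed it per gene, and the deposited table holds these TPM values. They aligned reads with STAR 2.7.1a to mm10 and counted junction reads with rMATS-turbo (version not given in the sources used here); the deposited junction reads are counts per sample, in lists without mouse names. The authors' own PSI, p-values and differences were not used.

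Genes above 5 TPM in at least 1 library were tested with limma 3.58.1 in R 4.3.3 (trend) on log2(TPM + 1), so fold changes of low genes are understated. The authors' thresholds (adjusted p under 0.05, 1.5-fold) were used, since count tests need counts. Ground and flight were fitted within each muscle, with no block. The muscle comparison and the interaction had mouse as a block, since the labels give both muscles of a mouse one name (correlation of same-mouse deviations -0.119 to 0.333). Events needed a mean above 10 junction reads in both groups and were left out where all 6 samples had PSI up to 0.05 or from 0.95. Inclusion and skipping reads, each plus 0.5 and per form length, gave a log2 ratio that limma tested. Tests were checked on simulated data, where the splicing test recovered a minority of the changes put in. The interaction recovered fewer than the other expression comparisons. The expression changes put in were above the 1.5-fold limit and above every flight difference fitted for a member. The check therefore does not tell how often changes of the size seen would be found. A count of 0 calls in any of these comparisons does not show that nothing differed. P-values are two-sided. Positions are 1-based and from GENCODE vM21 (GRCm38), which names 35856 of the 36008 genes.

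The members and gene lists were chosen with earlier results of these data known, and the motifs after the promoters had been read. All members are named. Of a pathway list, the genes that passed in a comparison are named (at most 6), otherwise the 3 with the lowest p for flight, of which some are not reported here. The 5 most alike genes by Pearson r are named for Trim63, Fbxo32 and Bnip3. Alternatives were another pseudocount, no filter, rescaling, no variance trend, another block, a joint fit, each mouse left out, and for events a higher minimum, 1 added, weights and each sample left out.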

Additional observations from a re-analysis of the deposited data

How the results depend on the processing

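No member was called in any of the 5 expression comparisons or for the Trim54 exon under any alternative run. Over 570 values of members under alternatives, 18 had another sign than reported, none of them called. The number of members lower in the gastrocnemius at an adjusted p under 0.05 was 7, and 6 whichever mouse was left out, 5 with no filter, 6 after rescaling, and 4 with no replicate block (mouse left out of the fit), where Trim63 (adjusted p = 0.066), Fbxo32 (0.103) and Fbxo30 (0.12) were lost. The share of all genes that were lower by this rule was not computed under the alternatives, so these counts have no background beside them. After rescaling, Fbxo21 changed from -0.08 to 0.003, its adjusted p being 0.984.

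The counts over all genes that stand as background depend more on the settings. In the gastrocnemius 24 genes were called in flight, and 4 with no filter, 5 without a variance trend, 18 after rescaling and 32 in a joint fit. Leaving out a mouse gave 1 to 133 (6, 3 and 8 without ground M02, M03 and M08, and 133, 2 and 1 without flight M11, M12 and M20). In the quadriceps 3 were called, and 1 to 4 under these settings, with 1 without M02, M11 or M12. For the mean of both muscles 13 were called, and 48 after rescaling, 0 with no filter or no trend, and 0 to 134 without a mouse (0, 1 and 7 without M02, M03 and M08, and 134, 0 and 0 without M11, M12 and M20). Between muscles 352 were called, 34.7% of them higher in the gastrocnemius, against 58.6% of 297 after rescaling. In the flight comparisons rescaling moved the share of higher calls from 50% to 33.3% in the gastrocnemius, from 33.3% to 0% in the quadriceps and from 61.5% to 37.5% for the mean. For the interaction 0 were called, and 2 with no filter and 1 without M12.

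With the replicate number as a replicate block, 0, 0 and 3 genes were called in the gastrocnemius, the quadriceps and the mean. The numbers do not pair the mice, since the labels name different mice for ground and flight. Same-numbered libraries of ground and flight correlated at -0.143 to 0.111 in the gastrocnemius and at -0.18 to -0.0653 in the quadriceps. These ranges overlap that of the 2 muscles of the same mouse (-0.119 to 0.333), so the correlations cannot decide the pairing. No paired analysis was possible for splicing because the lists do not name the samples. Called gastrocnemius events were 8, and 12 with 1 added, 0 with weights, and 1 without any single sample but the second flight sample (9). Without that sample the Trim54 change turned from 0.45 to -0.04 (log2 ratio). In the quadriceps 0 were called under every setting. With 3 mice a group, the flight intervals of Trim63, Foxo1, Foxo3 and Fbxo32 hold a 1.5-fold change in at least 1 muscle.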

Other observations

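Among the FoxO-linked target genes, 4 of 21 had an unadjusted p under 0.05 for a difference of the flight effect between the muscles, against 5.09% of all genes, and 0 passed adjustment. Irs2, which encodes an adaptor of the insulin receptor and is a textbook FoxO target, had 19.9 ± 6.52 TPM on the ground and 13.9 ± 1.84 TPM in flight in the gastrocnemius, and 10 ± 1.84 and 11.9 ± 1.5 TPM in the quadriceps (difference of effects -0.67 ± 0.174 on the log2 scale, limma adjusted p = 0.811). Ddit4, a stress-induced inhibitor of mTORC1, had -0.56 ± 0.171 (adjusted p = 0.939), and its flight levels varied widely between mice, at 26.4 ± 21.6 TPM in the gastrocnemius and 36.2 ± 30.9 TPM in the quadriceps, against 13.6 ± 5.2 and 12.1 ± 6.32 TPM on the ground. Txnip and Sesn3 had values of 0.32 ± 0.0983 and 0.45 ± 0.167 (adjusted p = 0.939 and 0.957). These 4 genes were named after their values were seen.

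The pathway lists also held splicing events. In the gastrocnemius, 8 events of 6 other muscle ubiquitin ligase genes, 3 of 2 autophagy and lysosome genes, 5 of 4 FoxO regulators and 2 of 2 FoxO-linked genes were tested, and 0 were called, with 1 ligase event and 1 FoxO-linked event at an unadjusted limma p under 0.05. In the quadriceps 10, 2, 5 and 2 events were tested and 0 were called, with 1 FoxO-linked event at an unadjusted p under 0.05. Of all tested events, 9.49% in the gastrocnemius and 7.76% in the quadriceps had an unadjusted p under 0.05.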
